A study of Mus musculus and Homo sapiens with 19 samples.

Results

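The experiment compared 4T1 cells in which an shRNA lowers the serine synthesis enzyme PHGDH with 4T1 cells that carry a scramble shRNA. Its members were the 6 libraries labelled 4T1 shSCR (3) and 4T1 shPHGDH (3), of 19 samples in the whole series, and all genes of the knockdown count table were considered. 4T1 is a mouse mammary carcinoma line, and both arms are the same line carrying the pLKO.1 shRNA vector. As far as the labels go, the controls differ from the knockdown in the shRNA and, in part, in sequencing lane. Lane 5 held shSCR 1 and 2, and lane 6 held shSCR 3 and all shPHGDH libraries. The labels name a single PHGDH shRNA, do not give its target sequence, and do not say whether an arm is a pool or 1 clone, how long the cells were cultured after transduction or whether the replicates were separate cultures. The p-values below therefore measure the spread between these libraries, which may be technical. RNA was extracted with TRIzol from freshly collected cells, made into stranded mRNA libraries and sequenced as single-end reads.

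PHGDH oxidises the glycolytic intermediate 3-phosphoglycerate, and PSAT1 and PSPH complete the path to serine. Serine feeds glycine and one-carbon units for nucleotides and methylation, and it is the head group or backbone donor of phosphatidylserine and the sphingolipids. In breast cancer PHGDH is known both for raised levels in some tumours and for levels that vary between cells of 1 tumour.

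The assigned counts were 12.7 to 20.5 M per library, and 11568 of the 24421 genes in the table passed the filter on low counts and were tested. The arms separated on the first principal component, with 82.3% of the variance, against 5.24% for the second. Values are given as CPM, counts per 1 M of the scaled library. The library shPHGDH 1 stood apart from shPHGDH 2 and 3 (chi-square over degrees of freedom 14.9 and 20.8, against 1.76 between the others). This went with 4 entries, which were picked after their values were seen. Rn45s, the ribosomal RNA precursor, was at 16830 CPM in shPHGDH 1 and at 1831 to 2280 CPM in the other 5 libraries. Lars2 was at 663 against 117 to 138, and Mir6236 at 131 against 12.9 to 18.5. Gm1821 was at 0.505 CPM in shPHGDH 1, against 53.0 and 28.2 in shPHGDH 2 and 3. In shSCR it was at 0.684, 0.523 and 0.469 CPM, so for Gm1821 shPHGDH 1 lay with shSCR. Without these 4 entries the same chi-square values were 1.38 and 1.55, and 3550 genes were higher and 3366 lower, against 3484 and 3421 with them.

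Phgdh, the targeted gene (chr3:98313170-98339990, minus strand, GRCm38), was at 167, 173 and 163 CPM in shSCR and at 20.7, 20.21 and 21.7 CPM in shPHGDH. The 3 shPHGDH libraries lay far below the 3 shSCR libraries, with no overlap. Averaged, the arms stood at 168 ± 4.58 and 20.9 ± 0.746 CPM (SD, n = 3 each) (log2 -2.999, SE 0.043, edgeR adjusted p = 5.16e-28). In bulk RNA a lower level in every cell and fewer cells with the gene cannot be told apart.

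Small differences made up most of the response. Of the tested genes, 59.7% had an adjusted p below 0.05 in edgeR's quasi-likelihood test, 30.1% higher and 29.6% lower in shPHGDH, and "rose" and "fell" below are used for these only. Among the calls, 80.5% were under 1.5-fold. Genes called at 2-fold or more were 2.88% of those tested on the higher side (333) and 1.9% on the lower side (220). At 4-fold or more there were 135 higher and 30 lower genes. The 3 libraries of one arm did not overlap those of the other for 7310 genes, 63.2% of those tested, beside the 59.7% that were called. The biological coefficient of variation was 3.23%, and the median log2 fold change over all tested genes was -0.0103.

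**Figure D1:**
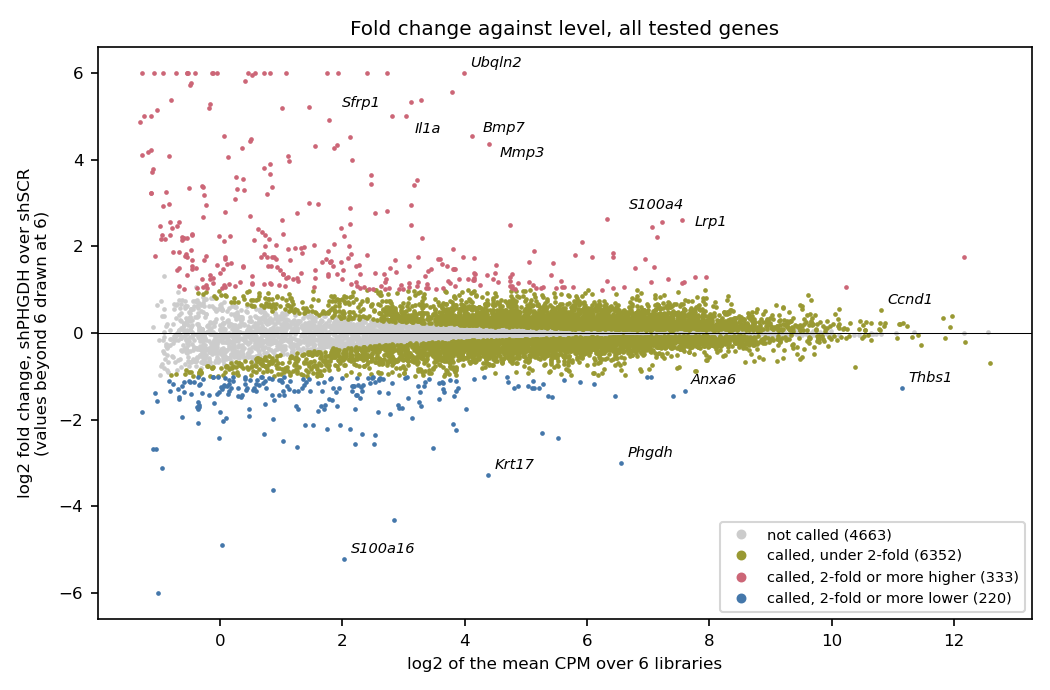
Log2 fold change of shPHGDH over shSCR (vertical axis, values beyond 6 drawn at 6) against the log2 of the mean CPM over the 6 libraries (horizontal axis) for the 11568 tested genes, coloured by call. The 333 genes called 2-fold or more higher outnumber the 220 lower ones, and the widest changes are on the higher side.

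Among the genes with the largest rises were secreted signals and proteases. Bmp7, a bone morphogenetic protein (chr2:172868012-172940321, minus strand), was at 1.37, 1.69 and 1.251 CPM in shSCR and at 33.4, 32.9 and 34.5 CPM in shPHGDH. Every shPHGDH library lay far above every shSCR library, with no overlap (log2 4.55, SE 0.11, edgeR adjusted p = 4.6e-23). Mmp3, the secreted protease stromelysin (chr9:7445822-7455975, plus strand), was at 1.64, 2.56 and 1.67 CPM in shSCR and at 35.8, 43.4 and 42.1 CPM in shPHGDH and rose (log2 4.36, SE 0.12, edgeR adjusted p = 6.7e-22). The gelatinase Mmp9 rose from 41.4 to 226 CPM (2.45), the urokinase Plau from 50.1 to 233 CPM (2.21), the complement protein C3 from 5.81 to 22.17 CPM (1.93) and the pentraxin Nptx1 from 8.04 to 45.8 CPM (2.502). Plau lies on chromosome 14, where the median of its 50 nearest tested genes was 0.48.

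Receptors and adhesion proteins of the cell surface were a second set of large rises. Lrp1, an endocytic receptor for lipoproteins and protease complexes (chr10:127538161-127621148, minus strand), was at 48.3, 55.5 and 53.8 CPM in shSCR and at 323, 316 and 332 CPM in shPHGDH. All 3 shPHGDH libraries lay above all 3 shSCR libraries (log2 2.62, SE 0.040, edgeR adjusted p = 8.65e-28). The adhesion molecule Alcam rose from 25.1 to 87.3 CPM (1.79), the membrane-anchored semaphorin Sema7a from 7.13 to 24.16 CPM (1.75) and the sorting receptor Sorl1 from 8.29 to 27.4 CPM (1.73). Inside the cell, the calcium-binding S100a4 was at 42.9, 45.7 and 41.0 CPM in shSCR and at 256, 259 and 256 CPM in shPHGDH (log2 2.57, SE 0.038, edgeR adjusted p = 6.87e-28). The actin-bundling plastin Lcp1 was at 21.4, 21.9 and 23.3 CPM in shSCR and at 137, 137 and 140.3 CPM in shPHGDH (log2 2.64, SE 0.043, edgeR adjusted p = 3.39e-27), with neighbours on chromosome 14 at a median of 0.48. For both genes the arms were well apart and the libraries of an arm close together. Tensin Tns4 (1.84), the kinase scaffold Akap12 (1.75), the PDZ-LIM protein Pdlim2 (1.71, neighbours 0.59), Tnfaip2 (2.11, neighbours 0.43), Oaf (1.76) and the collagen prolyl hydroxylase subunit P4ha2 (1.71) completed the 20 largest rises, together with Ubqln2, described below among genes absent from one arm, and Mir6236. Mir6236 was called (log2 1.89, SE 0.46, edgeR adjusted p = 0.000818) through shPHGDH 1 alone: without that library its log2 fold change was 0.22 (edgeR adjusted p = 0.0605).

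Keratins, junction proteins and collagens were among the 20 largest falls, with Phgdh itself and genes of other kinds. Krt17, a keratin of basal epithelium (chr11:100256217-100261029, minus strand), was at 37.5, 37.4 and 38.8 CPM in shSCR and at 3.79, 3.66 and 4.18 CPM in shPHGDH. All shPHGDH libraries lay below all shSCR libraries (log2 -3.27, SE 0.086, edgeR adjusted p = 2.97e-22). The sodium channel subunit Scn3a fell from 19.18 to 3.14 CPM (-2.64), the noncoding RNA Lincenc1 from 77.5 to 14.5 CPM (-2.43) and the nucleotide exchange factor Arhgef19 from 23.9 to 5.06 CPM (-2.23). Car9, a carbonic anhydrase of the cell surface (chr4:43506966-43513729, plus strand), was at 65.0, 62.2 and 63.7 CPM in shSCR and at 13.3, 13.3 and 12.4 CPM in shPHGDH and fell (log2 -2.30, SE 0.061, edgeR adjusted p = 4.03e-22). The neighbours of Car9 were at a median of -0.32. Genes of cell junctions and splicing in epithelium were among the rest: desmocollin Dsc2 (-2.09), claudin Cldn7 (-1.45) and Esrp1 (-1.45, neighbours -0.23). The collagens Col6a1 (-1.52) and Col4a5 (-1.46), the netrin Ntn1 (-1.27), the nonmuscle myosin Myh14 (-1.49), the membrane-binding annexin Anxa6 (-1.33), the adhesion receptor Adgrf5 (-1.75), the transporter family member Slco5a1 (-1.46), the kinase Dclk2 (-1.35), the interferon-inducible GTPase Ifi47 (-1.36), Ccdc68 (-1.29) and the Rab-like GTPase Rasef (-1.28, neighbours -0.25) fell as well.

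Among abundant genes, several of the largest changes were in secreted proteins. Thbs1, the secreted matrix protein thrombospondin 1 (chr2:118111876-118127133, plus strand), was at 3232, 3185 and 3245 CPM in shSCR and at 1355, 1315 and 1339.5 CPM in shPHGDH. Each shPHGDH library was far below the lowest shSCR library (log2 -1.27, SE 0.022, edgeR adjusted p = 2.71e-26). Of genes averaging 100 CPM or more over the libraries, the largest rises beside Lrp1, S100a4, Mmp9 and Plau were Sparc (from 58.2 to 189 CPM, 1.70), clusterin Clu (from 70.4 to 203 CPM, 1.52, neighbours 0.57), osteopontin Spp1 (from 57.6 to 163 CPM, 1.498) and the IGF-binding Igfbp4 (from 143 to 351 CPM, 1.30), and the transporters Slco2a1 (1.24) for prostaglandins and Ank (1.17, neighbours 0.33) for pyrophosphate. The largest falls, beside Thbs1, Esrp1 and Anxa6, were in the keratin Krt14 (-1.02), the deadenylase subunit Cnot7 (-1.02, neighbours -0.29), the adaptor Sorbs2 (-0.87, neighbours -0.30), Ckap4 of the endoplasmic reticulum (-0.87), the kinase Mast2 (-0.87, neighbours -0.26), tenascin Tnc (-0.83, neighbours -0.25) and Gadd45b (-0.82).

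**Figure D2:**
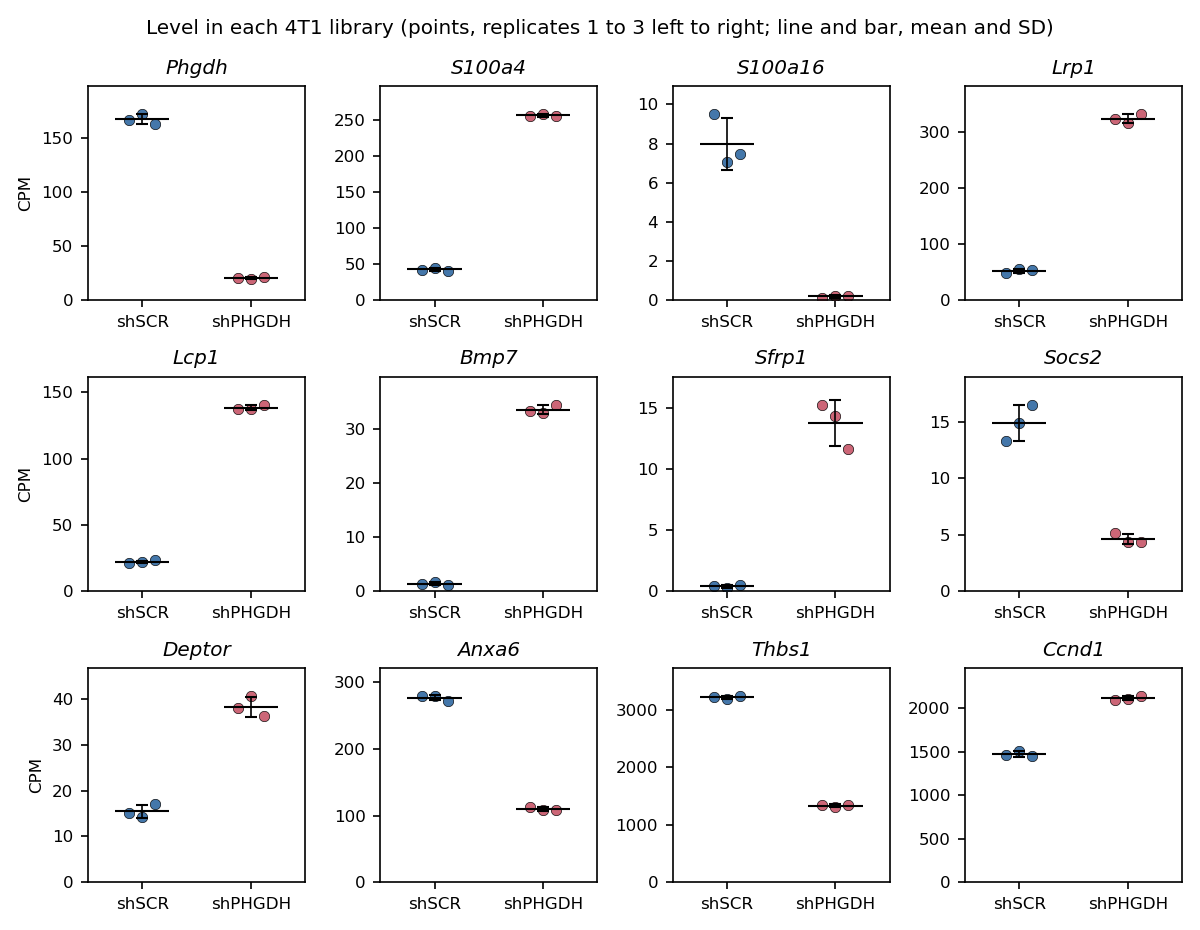
CPM in each of the 6 libraries (vertical axis, starting at 0) for 12 genes, with shSCR on the left and shPHGDH on the right of each panel, points for replicates 1 to 3, and a line and bar for the mean and SD. Within each arm the points lie close together, and the arms do not overlap in any of the 12 panels. For Bmp7, Lrp1, Lcp1, S100a4, Anxa6 and Thbs1 lack of overlap was a condition of the rankings that named them.

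The promoters of the genes with the largest changes are shown because their start regions were searched for letters bound by 3 families of factors. AP-1 sites were searched as TGANTCA, an ATF4 core as TGATGNAA and TEAD sites as GGAATG, on both strands of the 250 bases before each start. Each of these 4 windows holds a match to only 1 of the 3 motifs. The sequences are from RefSeq on GRCm38.p6, written 5′ to 3′ on the gene's strand, with the matched letters in capitals. The order is by the size of the change among the genes with a match, and the first 4 are given:
Mmp3: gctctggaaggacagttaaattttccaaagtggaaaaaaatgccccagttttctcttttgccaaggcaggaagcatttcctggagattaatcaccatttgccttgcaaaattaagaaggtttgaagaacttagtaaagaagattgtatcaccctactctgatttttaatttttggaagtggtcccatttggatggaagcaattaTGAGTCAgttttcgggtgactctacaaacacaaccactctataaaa
Lcp1: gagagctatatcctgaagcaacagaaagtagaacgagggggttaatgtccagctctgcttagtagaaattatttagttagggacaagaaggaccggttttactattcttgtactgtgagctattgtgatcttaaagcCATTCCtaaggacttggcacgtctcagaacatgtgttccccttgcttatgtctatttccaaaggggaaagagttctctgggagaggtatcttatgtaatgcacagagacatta
Car9: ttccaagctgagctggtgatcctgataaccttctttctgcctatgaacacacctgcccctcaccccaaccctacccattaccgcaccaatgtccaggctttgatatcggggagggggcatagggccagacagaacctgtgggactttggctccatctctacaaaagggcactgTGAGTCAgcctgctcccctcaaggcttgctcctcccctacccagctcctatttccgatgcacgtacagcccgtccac
Arhgef19: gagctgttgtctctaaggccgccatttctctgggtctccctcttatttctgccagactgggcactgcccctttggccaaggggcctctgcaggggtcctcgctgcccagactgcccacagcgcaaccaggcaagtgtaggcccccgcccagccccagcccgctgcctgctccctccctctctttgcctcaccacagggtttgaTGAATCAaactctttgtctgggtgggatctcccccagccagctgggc
The Mmp3 window (chr9:7445572-7445821, plus strand) holds AP-1 letters that begin 46 bases before the start. The window of Lcp1 (chr14:75136175-75136424, plus strand) holds TEAD letters on the other strand, 113 bases before it. Those of Car9 (chr4:43506776-43507025, plus strand) and Arhgef19 (chr4:141244838-141245087, plus strand) hold AP-1 letters 77 and 47 bases before the start. In these 4 windows the AP-1 letters thus stood before 1 gene that rose and before 2 that fell. Of the 20 largest rises 11 had a promoter entry, 1 of them with AP-1 letters. The 20 largest falls also had 11 with an entry, 3 of them with AP-1 letters. Over 240 genes called 2-fold or more higher with a promoter entry, 12.1% held AP-1 letters, and over 149 lower ones 10.1%. The share was 5.5% over 8839 tested genes and 7.82% over all 27025 genes with an entry. For TEAD the shares in the same order were 17.5%, 13.4%, 12.5% and 14.4%, and for the ATF4 core 3.33%, 2.01%, 2.23% and 3.91%. A match is a description of letters and not a bound site.

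Genes of serine synthesis and of the paths that serine feeds were called in both directions. Over all tested genes 30.1% were higher and 29.6% lower. The shares were 37.5% and 21.9% for sphingolipid and phosphatidylserine genes, and 31.2% and 25% for polyamine genes. For glycine, the methionine cycle and creatine, 24 of 33 genes were tested, of which 5 were higher, 6 lower and 13 not called (median log2 -0.019). The target Phgdh is itself among the 6 lower members. Higher members were 20.8% and lower ones 25%, both below the shares over all tested genes. Psat1, the transaminase after PHGDH, was at 368, 359 and 347 CPM in shSCR and at 475, 459 and 473 CPM in shPHGDH. Its 3 shPHGDH libraries lay above shSCR (log2 0.39, SE 0.026, edgeR adjusted p = 4.02e-13). The phosphatase Psph rose as well (0.23), while Gatm, the first enzyme of creatine synthesis, fell from 5.75 to 1.78 CPM (-1.68). Without shSCR 2, without shPHGDH 1 or with library totals as scaling, 3 members were higher in place of 5, and with sequencing lane in the model 3 were higher and 3 lower. Of the sphingolipid and phosphatidylserine genes, 32 of 39 genes were tested, of which 12 were higher, 7 lower and 13 not called (median log2 0.042). The lactosylceramide synthase B4galt5 rose (0.37) and its relative B4galt6 fell (-0.66), the sphingomyelinase Smpd1 fell (-0.78), and the acid ceramidase Asah1 was at 144, 144 and 144 CPM in shSCR and at 151, 142 and 138 CPM in shPHGDH and was not called (-0.0051). Lower members were 4 without shPHGDH 1 or with lane in the model, where the median was 0.133, and 3 when the median of its 50 neighbours was taken out of each gene, called the neighbour offset from here on. For polyamine synthesis, 16 of 20 genes were tested, of which 5 were higher, 4 lower and 7 not called (median log2 0.048): the rate-limiting Odc1 (0.35), the antizyme inhibitor Azin1 (0.49, neighbours 0.35) and the acetyltransferase Sat1 (0.50) rose. The hypusine-forming Dhps (-0.31, neighbours -0.27) and the spermidine synthase Srm (-0.14, neighbours -0.22) fell, and under the neighbour offset stood at -0.04236 (edgeR adjusted p = 0.62) and 0.07906 (0.0501). The oxidase Paox was called lower (-0.32), and the call was lost under the neighbour offset and without any 1 library other than shSCR 2. Lower members were 1 under the offset and 2 with lane in the model, and the median of the list was -0.0192 without shSCR 3.

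Lists of matrix sugar proteins and collagen enzymes held a larger share of higher genes than the table as a whole. Of the proteoglycan cores and heparan sulphate enzymes, 41 of 61 genes were tested, of which 26 were higher, 3 lower and 12 not called (median log2 0.21). Higher members were 63.4% of those tested, against 30.1% over all genes, and lower ones 7.32%, against 29.6%. The sulphatase Sulf2, which trims heparan sulphate outside the cell, was at 0.342, 0.349 and 0.365 CPM in shSCR and at 7.46, 6.60 and 6.83 CPM in shPHGDH (log2 4.28, SE 0.22, edgeR adjusted p = 1.34e-15). All shSCR libraries were near 0 for it and all shPHGDH libraries well above. The syndecan Sdc3 (1.63) and the glypican Gpc1 (from 162 to 323 CPM, 0.997) rose too, while agrin, Agrn, fell from 667 to 429 CPM (-0.64, neighbours -0.26) and so did the glypican Gpc4 (-0.38). Among collagen-modifying enzymes, 20 of 24 genes were tested, of which 15 were higher, 1 lower and 4 not called (median log2 0.21), so 75% were higher. Under the neighbour offset 5 proteoglycan genes and 3 collagen-modifying genes were lower. Beside P4ha2, the lysyl oxidase Loxl3 (1.35) and the procollagen protease Bmp1 (from 205 to 338 CPM, 0.72, neighbours 0.54) rose, and the abundant Loxl4 was at 295, 292 and 289 CPM in shSCR and at 294, 291 and 295 CPM in shPHGDH, with the arms overlapping.

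Other extracellular lists differed in their shares. For ADAM, ADAMTS and membrane proteases, 29 of 47 genes were tested, of which 12 were higher, 9 lower and 8 not called (median log2 -0.069), with the abundant Adamts1 falling from 514 to 331 CPM (-0.64) and the kallikrein Klk10 rising (1.146). That median was 0.00596 under the neighbour offset and 0.00487 with lane in the model. Of complement and coagulation regulators, 14 of 37 genes were tested, of which 8 were higher, 3 lower and 3 not called (median log2 0.28), among them C3, Clu and the protease receptor F2rl1 (0.89). Higher members were 57.1% and lower ones 21.4%, against 30.1% and 29.6% over all genes. The lower count there was 1 without shSCR 3 or without shPHGDH 1, and the median was 0.16 without shSCR 3. For glycan enzymes and galectins, 36 of 53 genes were tested, of which 16 were higher, 8 lower and 12 not called (median log2 0.076): the galectin ligand Lgals3bp (1.18) and the branching enzyme Gcnt2 (0.84) rose and the transferase Galnt11 fell (-0.50). With the neighbour offset or lane in the model 5 were lower, and with the offset the median was 0.168.

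**Figure D3:**
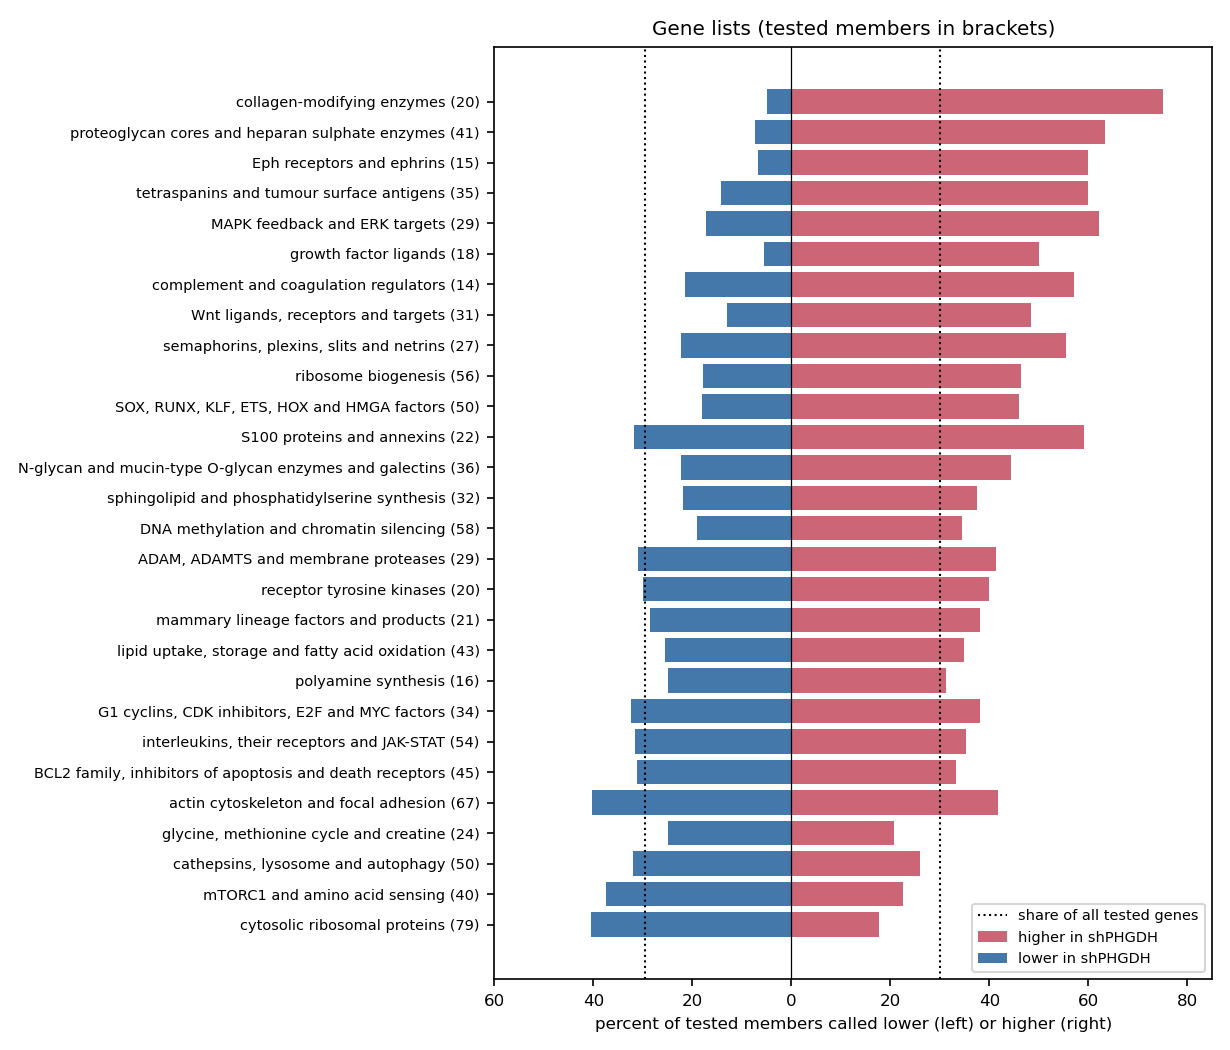
Percent of the tested members of each gene list shown called higher (right) or lower (left) in shPHGDH, with dotted lines at the shares over all tested genes (30.1% and 29.6%) and the number of tested members in brackets. Collagen-modifying enzymes (75% higher) and proteoglycan genes (63.4%) lie far right of the line, and among the lists shown the excess of lower members is largest for cytosolic ribosomal proteins (40.5% against 17.7%), which with lane in the model had 20 lower and 15 higher of 79.

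Surface and calcium-binding proteins also differed in their shares. Tetraspanins and antigens had 60% higher and 14.3% lower members, against 30.1% and 29.6% over all genes. For S100 proteins and annexins the shares were 59.1% and 31.8%. Of the tetraspanins and tumour surface antigens, 35 of 42 genes were tested, of which 21 were higher, 5 lower and 9 not called (median log2 0.23). The tetraspanins Cd82 (0.86) and Tspan15 (0.96) rose with Alcam, the adhesion molecules Mcam (from 48.4 to 20.1 CPM, -1.27) and Epcam (from 354 to 244 CPM, -0.53) fell, and the hyaluronan receptor Cd44 was at 744, 757 and 773 CPM in shSCR and at 779, 776 and 773 CPM in shPHGDH and was not called (0.034), but was called higher under the neighbour offset (0.128, edgeR adjusted p = 3.28e-05). With library totals as scaling 8 of these genes were lower, and with lane in the model the median was 0.361. For S100 proteins and annexins, 22 of 28 genes were tested, of which 13 were higher, 7 lower and 2 not called (median log2 0.26), with neighbours of the list at a median of 0.13 and a median of 0.0951 under the neighbour offset. S100a16 was at 9.51, 7.03 and 7.45 CPM in shSCR and at 0.126, 0.239 and 0.246 CPM in shPHGDH, close to absent from every shPHGDH library (log2 -5.22, SE 0.26, edgeR adjusted p = 9.54e-16), whereas S100a4 and S100a7a (1.44) of the same chromosome 3 cluster rose. Named after their values were seen, S100a1 (0.60), S100a3 (0.74), S100a6 (0.23) and S100a11 (0.28) of that cluster rose too, and S100a10 fell (-0.10). S100a8 (1.12), S100a9 (1.97) and S100a13 (0.31) were called higher at under 10 CPM in every library, and S100a9 had no count in shSCR 1 and 2 and was at 2.76 CPM in shSCR 3. Among annexins, Anxa8 rose (1.75, neighbours 0.52), and the abundant Anxa1 was at 1675, 1650.3 and 1692 CPM in shSCR and at 975, 992 and 964 CPM in shPHGDH and fell (log2 -0.78, SE 0.023, edgeR adjusted p = 8.08e-21).

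Receptor and ligand families were unevenly affected. Growth factor ligands had 50% higher and 5.56% lower members, against 30.1% and 29.6% over all genes. Receptor tyrosine kinases, at 40% and 30%, were nearer to the shares over all genes. Of the growth factor ligands, 18 of 35 genes were tested, of which 9 were higher, 1 lower and 8 not called (median log2 0.18), with the EGFR ligand Areg (from 12.2 to 26.1 CPM, 1.10), the neurotrophin Bdnf (0.97) and Pdgfc (0.63) rising and the FGF-binding Fgfbp1 falling from 98.8 to 52.4 CPM (-0.92). The median of the ligands was 0.295 without shSCR 2, 0.319 without shPHGDH 3, 0.324 with lane in the model and 0.0987 under the neighbour offset. For receptor tyrosine kinases, 20 of 39 genes were tested, of which 8 were higher, 6 lower and 6 not called (median log2 0.030), including Flt1 (0.76) upward and Fgfr3 (-0.65), Ltk (-0.64) and Ror1 (-0.51) downward. Of MAPK feedback genes and ERK targets, 29 of 32 genes were tested, of which 18 were higher, 5 lower and 6 not called (median log2 0.30), that is 62.1% higher. With lane in the model 3 were lower. The ERK phosphatase Dusp5 was at 10.1, 11.9 and 9.95 CPM in shSCR and at 26.9, 24.4 and 23.6 CPM in shPHGDH, with every shPHGDH library above shSCR (log2 1.23, SE 0.082, edgeR adjusted p = 4.8e-13). The ETS factor Etv5 (0.86) and Spry2 (0.79, neighbours 0.53) rose, while Spry1 (-0.25) and Dusp14 (-0.46) fell.

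Guidance and Wnt genes followed. Higher and lower shares were 48.4% and 12.9% for Wnt genes and 60% and 6.67% for Eph genes, against 30.1% and 29.6% over all genes. Of the semaphorin list 55.6% were higher, with 6 of 27 lower. For Wnt ligands, receptors and targets, 31 of 54 genes were tested, of which 15 were higher, 4 lower and 12 not called (median log2 0.26). The secreted Wnt antagonist Sfrp1 was at 0.410, 0.291 and 0.521 CPM in shSCR and at 15.2, 14.3 and 11.6 CPM in shPHGDH (log2 5.02, SE 0.20, edgeR adjusted p = 5.63e-18). The 3 shSCR libraries were each under 1 CPM, and the 3 shPHGDH libraries were each above 10 CPM. The receptors Fzd7 (from 21.4 to 65.3 CPM, 1.62) and Fzd1 (1.01) rose, and Wnt10a (-0.42) and the repressor Tcf7l1 (-0.55) fell. Of Eph receptors and ephrins, 15 of 22 genes were tested, of which 9 were higher, 1 lower and 5 not called (median log2 0.10), among them the ligands Efnb1 (0.79) and Efna1 (0.52). The single lower member, Efnb3, lost its call without shSCR 3 or without shPHGDH 1 (edgeR adjusted p = 0.119 and 0.0516). Under the neighbour offset 11 members were higher and 2 lower, with a median of 0.336, and with library totals the median was 0.0627. For semaphorins, plexins, slits and netrins, 27 of 45 genes were tested, of which 15 were higher, 6 lower and 6 not called (median log2 0.24), with Sema4b (1.05) and the receptor Plxnd1 (0.92) upward beside Sema7a, and Plxna3 (-0.56) and Sema5a (-0.46, neighbours 0.36) downward beside Ntn1.

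Cytokine and cytoskeletal lists held about as many higher as lower genes, with wide single changes. Called genes were 66.7% of the interleukin list and 82.1% of the actin list, against 59.7% over all tested genes. In the actin list 41.8% were higher and 40.3% lower, and in the interleukin list 35.2% and 31.5%. Over all tested genes these shares were 30.1% and 29.6%. For interleukins, their receptors and JAK-STAT, 54 of 66 genes were tested, of which 19 were higher, 17 lower and 18 not called (median log2 0.062). The alarmin Il1a was at 0.479, 0.465 and 0.521 CPM in shSCR and at 15.0, 18.1 and 15.0 CPM in shPHGDH (log2 4.998, SE 0.17, edgeR adjusted p = 2.64e-19), under 1 CPM in each shSCR library. Socs2, an inhibitor of cytokine receptors, was at 13.3, 14.9 and 16.5 CPM in shSCR and at 5.18, 4.38 and 4.33 CPM in shPHGDH and fell (log2 -1.69, SE 0.11, edgeR adjusted p = 3.75e-13). Jak3 (-0.81, neighbours -0.28) and Stat5a (-0.80) fell as well. In actin cytoskeleton and focal adhesion, 67 of 76 genes were tested, of which 28 were higher, 27 lower and 12 not called (median log2 0.018). Its largest rises, Lcp1, the kindlin Fermt2 (1.05) and the kinase Ptk2b (0.96), all lie on chromosome 14, with neighbours at 0.48, 0.52 and 0.57.

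Lists of growth control and turnover were called in both directions, none with a median beyond 0.1 on the log2 scale. Over all tested genes 30.1% were higher and 29.6% lower. In the same order, G1 factors stood at 38.2% and 32.4%, mTORC1 genes at 22.5% and 37.5% and BCL2 genes at 33.3% and 31.1%. Cathepsin and autophagy genes stood at 26% and 32%, and lipid genes at 34.9% and 25.6%. For G1 cyclins, CDK inhibitors, E2F and MYC factors, 34 of 38 genes were tested, of which 13 were higher, 11 lower and 10 not called (median log2 -0.021). The abundant cyclin Ccnd1 was at 1457, 1507 and 1444 CPM in shSCR and at 2093, 2102 and 2138 CPM in shPHGDH and rose (log2 0.52, SE 0.024, edgeR adjusted p = 7.61e-17), as did the CDK inhibitor Cdkn1a (from 5.81 to 15.99 CPM, 1.48), while Cdk2 (-0.54) and the pocket protein Rbl2 (-0.69) fell and Myc was at 347, 361 and 353 CPM in shSCR and at 337, 343 and 345 CPM in shPHGDH, without a call (-0.048, neighbours 0.29). Myc was called lower under the neighbour offset (-0.34, edgeR adjusted p = 9.84e-12) and with library totals (-0.088, adjusted p = 0.0058). For mTORC1 and amino acid sensing, 40 of 43 genes were tested, of which 9 were higher, 15 lower and 16 not called (median log2 -0.031), led by the mTOR-binding inhibitor Deptor (from 15.4 to 38.3 CPM, 1.30, neighbours 0.35), with Sesn2 (0.61) and Sesn3 (0.65) upward and Sesn1 (-0.58) downward. Of BCL2 family, inhibitors of apoptosis and death receptors, 45 of 50 genes were tested, of which 15 were higher, 14 lower and 16 not called (median log2 0.052): Bcl2l11, also called BIM, rose (0.58) and Apaf1 of the apoptosome fell (-0.61). For cathepsins, lysosome and autophagy, 50 of 54 genes were tested, of which 13 were higher, 16 lower and 21 not called (median log2 -0.036), with the abundant protease Ctsl (from 599 to 1017 CPM, 0.76, neighbours 0.24) and Ctsb (0.95, neighbours 0.52) higher, and the autophagy protein Map1lc3a (-0.71), the kinase Ulk2 (-0.59) and the acid lipase Lipa (-0.46) lower. Under the neighbour offset 14 of this list were higher and 10 lower. Of lipid uptake, storage and fatty acid oxidation, 43 of 58 genes were tested, of which 15 were higher, 11 lower and 17 not called (median log2 -0.034), with the coactivator Ppargc1b (from 1.41 to 5.87 CPM, 2.05) higher and Apoe (-0.52) lower, and a median of 0.0581 under the offset.

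Translation genes moved in both directions by small amounts. Higher and lower shares were 46.4% and 17.9% for ribosome biogenesis and 17.7% and 40.5% for ribosomal proteins, against 30.1% and 29.6% over all genes. Of ribosome biogenesis genes, 56 of 56 genes were tested, of which 26 were higher, 10 lower and 20 not called (median log2 0.046), with 4 lower under the neighbour offset. Nucleostemin Gnl3 rose (0.63, neighbours 0.49), Rrp1 fell (-0.27), and nucleolin, Ncl, was at 4566, 4358 and 4825 CPM in shSCR and at 4517, 4742 and 4570.2 CPM in shPHGDH with overlapping arms. For cytosolic ribosomal proteins, 79 of 80 genes were tested, of which 14 were higher, 32 lower and 33 not called (median log2 -0.045), and the counts were 8 higher and 20 lower under the neighbour offset and 15 and 20 with lane in the model. Rpl22l1 was at 25.4, 18.9 and 20.5 CPM in shSCR and at 41.1, 45.5 and 39.9 CPM in shPHGDH (log2 0.96, SE 0.077, edgeR adjusted p = 1.99e-11), above shSCR in every shPHGDH library. Rps12 (-0.36) and Rps6 (-0.35) fell and lie among neighbours with medians of -0.29 and -0.28. Ribosomal proteins have many processed copies in the genome, so how the counting assigned shared reads touches these values.

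Among nuclear factors, 50 of 80 genes were tested, of which 23 were higher, 9 lower and 18 not called (median log2 0.11) for the list of SOX, RUNX, KLF, ETS, HOX and HMGA factors. Its shares were 46% higher and 18% lower, against 30.1% and 29.6% over all genes. The mammary list below stood at 38.1% and 28.6%, and the chromatin list at 34.5% and 19%. Sox13 (1.36), Klf13 (0.68) and Hmga1 (0.62) rose, and Klf8 fell (from 12.5 to 4.43 CPM, -1.49). The median was 0.0574 under the neighbour offset, 0.0648 with lane in the model and 0.0736 with library totals. For mammary lineage factors and products, 21 of 43 genes were tested, of which 8 were higher, 6 lower and 7 not called (median log2 0.11): the epithelial factor Grhl1 fell from 6.33 to 1.47 CPM (-2.11) with Foxa1 (-0.60) and Sox9 (-0.35), and Cebpb (0.51) and Elf3 (0.44) rose. That list's median was -0.0102 without shPHGDH 3, 0.071 with library totals and 0.0244 under the neighbour offset, where 5 members were higher. For DNA methylation and chromatin silencing, 58 of 60 genes were tested, of which 20 were higher, 11 lower and 27 not called (median log2 0.036), with the heterochromatin protein Cbx3 lower (from 66.6 to 37.0 CPM, -0.85).

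Markers of the line and of other cells were read in the same libraries. Of 10 markers of 4T1 epithelium, Krt5 was at 0 in all 6 libraries, 7 fell and 2 rose (1 rose under the neighbour offset), with Krt19 (-0.97) lower and Krt18 (0.55, neighbours 0.31) higher. Lower members were 77.8% of the 9 tested, against 29.6% over all tested genes. The 2 higher ones of these 9 stand beside 30.1% over all tested genes. Summed, the 10 markers were at 4305 to 4443 CPM in shSCR and 4104 to 4157 CPM in shPHGDH. The 9 fibroblast markers summed to 6.98 to 8.54 CPM in shSCR and 10.7 to 12.1 CPM in shPHGDH, with 7 of the 9 under 1 CPM in every library and Lum at 0. The 12 leukocyte markers summed to 9.18 to 11 and 13.9 to 16.2 CPM, with 9 of the 12 under 1 CPM and Cd3e and Cd3d at 0. The 9 endothelial markers summed to 59.4 to 65.6 and 88.9 to 90.9 CPM, nearly all from Eng (from 62.1 to 88.8 CPM, 0.52), with the other 8 under 1 CPM. All 3 sums were higher in shPHGDH, beside the rises of matrix and surface genes, and their part in those results was not tested.

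A set of genes was absent from one arm. With at most 3 counts summed over an arm and a mean of at least 1 CPM in the other, 25 genes were seen only in shPHGDH, 14 of them with 0 counts in shSCR, and 1 only in shSCR. Ubqln2, a ubiquitin-like shuttle to the proteasome (chrX:153498227-153501570, plus strand), had no count in any shSCR library and stood at 32.4, 30.5 and 32.6 CPM in shPHGDH. With the 0 set to 3 counts for the whole arm, as for the genes that follow, this is at least 544-fold higher. The factor Pitx1 was at least 226-fold higher, the lipoprotein receptor Vldlr at least 114-fold and the lysosomal hexosaminidase Hexa at least 72.2-fold. Sema3d, a secreted semaphorin, was at 1.44, 1.80 and 2.71 CPM in shSCR and at least 33.1-fold lower in shPHGDH. In untransduced 4T1 cells, 19 of the 25 genes had more than 3 counts.

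Neighbouring genes shifted together over most of a chromosome or over a stretch of one. The median log2 fold change was 0.51 over 372 tested genes of chromosome 14, of which 315 were higher and 3 lower. It was 0.28 on chromosome 15 and 0.25 on chromosome 13, and -0.25 on chromosome 8 and -0.22 on chromosome 4, where 450 of 709 genes were lower and 51 higher. On chromosome 2, with a median of -0.0274, the neighbours of Gata3 and Suv39h2 were at 0.42, and on chromosome 12, with 0.0872, those of Tnfaip2 were at 0.43. With the median of its 50 neighbours taken out of each gene, 5944 genes were called, 4650 of them in the direction first found, and 545 of the 553 genes at 2-fold or more kept their call. Rps24 (0.49) and Rpl15 (0.44) of chromosome 14 stood at -0.01856 and -0.03433 after it.

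**Figure D4:**
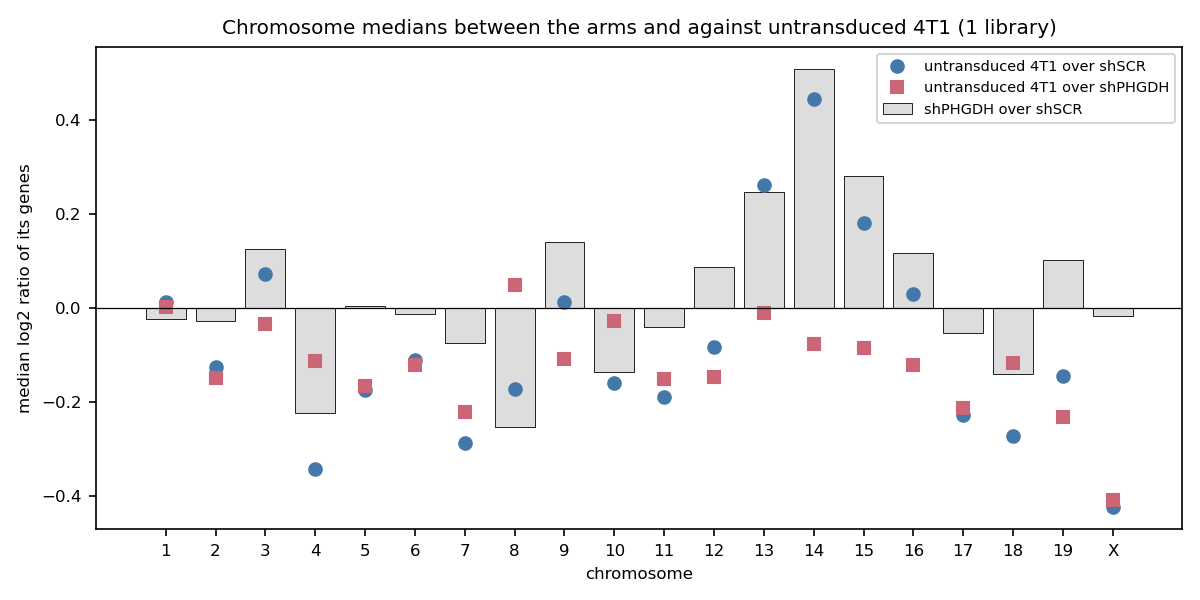
Median log2 ratio of the tested genes of each chromosome (vertical axis) for shPHGDH over shSCR (bars), untransduced 4T1 over shSCR (circles) and untransduced 4T1 over shPHGDH (squares). On chromosomes 13, 14 and 15 the bars and circles are above 0 and the squares lie near or below 0.

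The series also holds 1 library of untransduced 4T1 grown alone and 1 of 4T1 sorted from co-culture with Bend3 endothelial cells, of 4.30 M and 4.27 M counts. They were counted per Ensembl gene in another run, so their levels, matched by symbol for 11108 genes, are a description without a test. Phgdh was at 17.1 CPM in 4T1 alone and at 5.79 CPM in sorted 4T1, below the shPHGDH libraries and far below shSCR. Of the 50-base stretches of Phgdh transcripts, 47.8% also occur in transcripts of another gene, so the handling of shared reads can differ between the tables, and its part in this level was not tested. Rps6, for example, was at 0 CPM in 4T1 alone and at 180 to 237 CPM in the 6 libraries.

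Against 4T1 alone, chromosome 14 genes were at a median log2 of 0.44 relative to shSCR and -0.0759 relative to shPHGDH. On chromosome 13 these were 0.26 and -0.0114, on chromosome 15 0.18 and -0.0852, on chromosome 8 -0.17 and 0.0493 and on chromosome 4 -0.34 and -0.11. On these chromosomes 4T1 alone lay nearer to shPHGDH. It also did on chromosomes 1, 3, 5, 7, 10, 11, 17 and 18, in part by small margins. It lay nearer to shSCR on chromosome 9 (0.0123 and -0.108), chromosome 12 (-0.0835 and -0.147), chromosome 16 (0.0303 and -0.122) and chromosome 19 (-0.144 and -0.231). On chromosomes 2 and 6 it lay slightly nearer to shSCR as well. On chromosome X the medians of 4T1 alone were -0.42 and -0.41, apart from both arms alike. In sorted 4T1 the medians on chromosomes 14 (0.346 and -0.142), 15 (0.174 and -0.0695) and 4 (-0.283 and -0.109) were also nearer to shPHGDH. On chromosomes 8 (-0.0992 and 0.181) and 13 (0.117 and -0.145) they were nearer to shSCR instead. They were nearer to shPHGDH on chromosomes 9 and 12, and to shSCR on chromosomes 16 and 19. Of 326 matched genes called 2-fold or more higher, 4T1 alone lay on the shPHGDH side of the midpoint for 208, and of 211 lower genes for 132. Most lay outside both arms: of the higher genes 152 were above both, 73 below both and 101 between, and of the lower genes 49 were above both, 101 below both and 61 between. Sorted 4T1 lay on the shPHGDH side of the midpoint for 245 of the 326 higher genes. Of the 211 lower genes it lay on that side for 114 and on the shSCR side for 97. S100a4 was at 292 CPM in 4T1 alone, near the shPHGDH arm, but at 2709 CPM in sorted 4T1, above both arms. Of its 50-base stretches 47.4% also occur in transcripts of another gene, and the part of this in its level was not tested. Bmp7, at 9.97 CPM in 4T1 alone, lay between the arms. Krt17, at 2.0999 CPM, and Thbs1, at 49.1 CPM, lay below both arms.

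**Figure D5:**
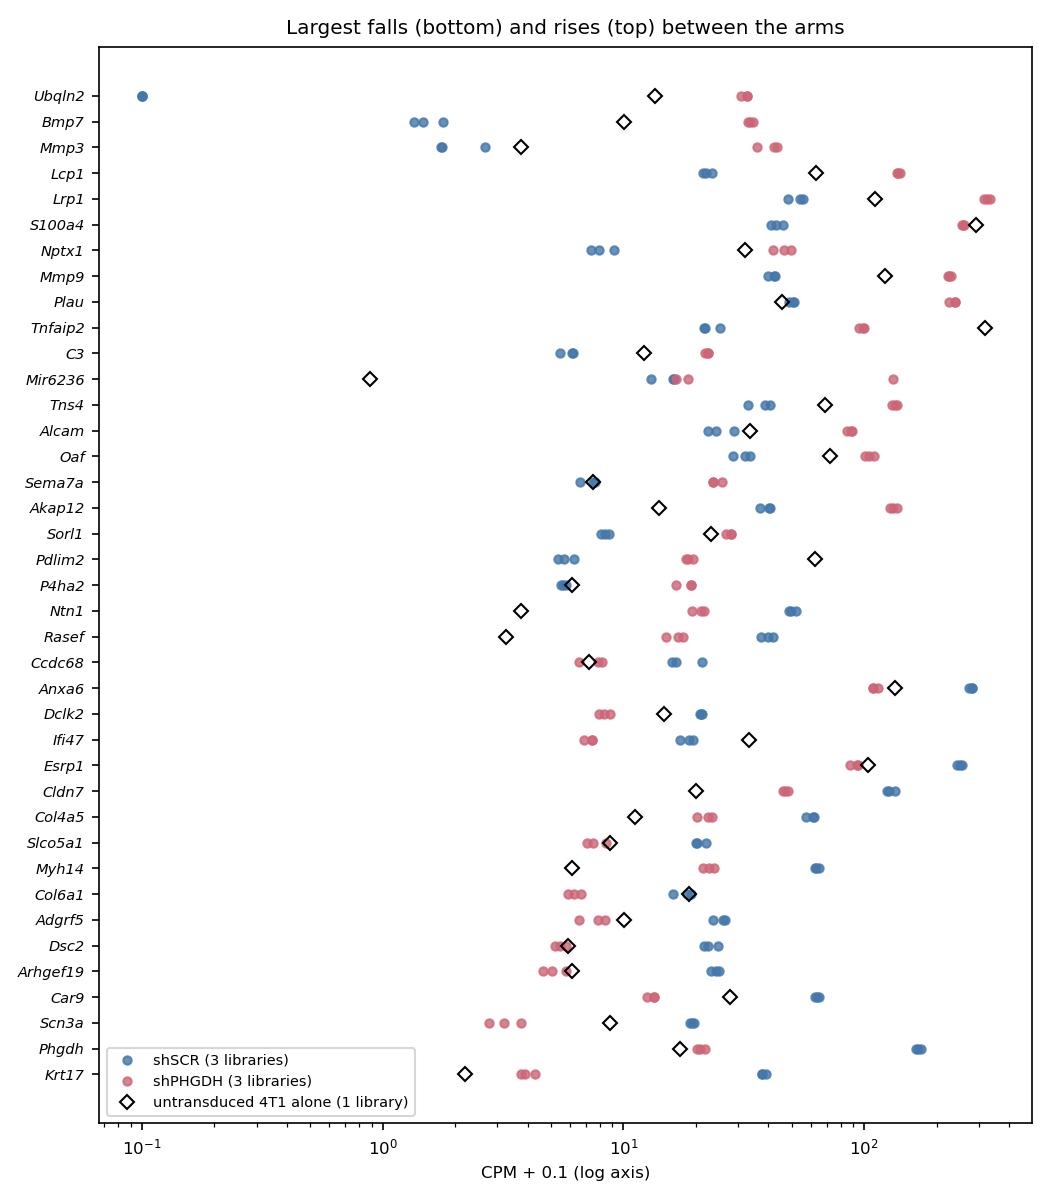
Level of the genes with the largest falls (lower rows) and rises (upper rows) among called genes without overlap that averaged 10 CPM or more. The log axis is CPM plus 0.1, for the shSCR and shPHGDH libraries (filled points, 3 each) and untransduced 4T1 grown alone (open diamonds, 1 library). The diamonds lie on the shPHGDH side for Phgdh, Krt17 and S100a4 and vary from gene to gene elsewhere.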

How the data were processed

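The deposited values are raw counts per gene symbol. Per the submitters' processing notes, the authors used Trim Galore 0.5.0, HISAT2 2.1.0 and HTSeq on GRCm38. Which counter made the knockdown table, the annotation and the strand setting are not given in the sources used here. Its other 10 library columns were not used. Counts of the 6 libraries were fitted with edgeR 4.0.16 in R 4.3.3 (TMM scaling, default low-count filter, quasi-likelihood F-test, no covariates). A call is a Benjamini-Hochberg adjusted p below 0.05. Lane 5 held shSCR 1 and 2, and lane 6 held the rest. DESeq2 1.42.0, lane, replicate block, library totals, no filter, leave-one-out, a 1.5-fold test and an offset for neighbouring genes were alternatives. The test was tried on simulated data of these 11568 genes, with 50 genes changed at each fold size and the rest unchanged. It recovered 62% of changes at 1.2-fold and 98% at 2-fold, with 0.123% false calls among unchanged genes. In the data 59.7% of genes were called, many more than were changed in the simulation, so these rates need not carry over.

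Named genes were Phgdh, the 20 largest rises and falls among called genes without overlap that averaged 10 CPM or more, the 10 each way at 100 CPM, up to 3 each way per list at 5 CPM with the most abundant uncalled member, and the 6 most abundant genes absent from an arm. Members and the 33 gene lists were chosen with earlier results of these data known. Some genes and 1 list that this rule names are not reported here. Positions are from GENCODE vM21 (GRCm38), which placed 96.3% of tested genes, and promoter sequences from RefSeq (GRCm38.p6).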

Additional observations from a re-analysis of the deposited data

How the results depend on the processing

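Phgdh was lower under each alternative run (log2 -3.13 to -2.96). Leaving out 1 library at a time gave 3248 to 3405 higher and 3040 to 3257 lower genes, and 342 to 368 and 228 to 255 at 2-fold or more, with Phgdh at -3.03 to -2.97. Against a null of 1.5-fold, 420 genes were higher and 239 lower. Without the filter on low counts 534 genes were 2-fold or more higher. DESeq2 called 3110 higher and 2768 lower. With lane in the model 5799 genes were called, 5529 of them as before. Within lane 6, which holds 1 shSCR library assumed to vary like the shPHGDH libraries, 3104 were higher and 2834 lower. Library totals gave 3027 higher and 4023 lower, a higher share of 42.9% against 50.5%, with the median of all genes moved by -0.0398. Leaving out the 4 entries that set shPHGDH 1 apart was chosen after seeing the data.

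Under the offset for neighbouring genes, 6 named genes changed sign: Cers5 (-3.654e-05), Gcsh (0.006578), Srm (0.07906), Noc2l (0.08137), Rps24 (-0.01856) and Rpl15 (-0.03433). The offset itself, a median of neighbours, sets these changes. Named calls also lost under it were those of B4galt2, Dhps, Gata3, Krt8, Setdb2 and Suv39h2, on shifted stretches, and of Paox and Fzd5. A further 12 named genes gained a call under it, among them Myc, Cd44, Actn4, St14, Ahcyl1 and Man2a1.

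With a replicate block 6585 genes were called, 3356 higher and 3229 lower, with 330 and 223 at 2-fold or more and Phgdh at -2.997, and 6570 calls were shared. Same-numbered libraries did not deviate together (correlations -0.000138, -0.0349 and -0.0546), so the numbers do not show a pairing.

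Depth was 12.7 to 20.5 M counts, and the small folds also moved with the scaling, with lane and with the neighbour offset, as given above.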
